A study of Mus musculus with 24 samples.

Results

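The Hedgehog genes examined here were 8 genes chosen by their symbols, out of 56205 genes in a table of read counts from whole mouse liver. They were the secreted ligands Shh and Ihh, the membrane proteins Ptch1, Smo and Hhip, and the transcription factors Gli1, Gli2 and Gli3, and each symbol matched 1 gene ID. The libraries came from C57BL/6J mice kept for 20 weeks either on a high-fat diet of palm oil, fructose and cholesterol (12 libraries) or on its control diet (12 libraries). The mice were 8 to 10 weeks old when the diets began. Males and females were both used, and no label says which library came from which sex. In each diet, replicates 1 to 6 had Xist counts above 1000 and replicates 7 to 12 had Xist counts of at most 3. Ddx3y, a gene of the Y chromosome, had 0 counts in replicates 1 to 6 of both diets. In replicates 7 to 12 it had 448 to 761 counts on the high-fat and 476 to 1016 counts on the control diet. These sets of 6 libraries are set apart below as Xist-high and Xist-low libraries, although they are not conditions named by the labels. Because whole liver was sequenced, fewer cells of a type and less RNA per cell cannot be told apart.

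Hedgehog ligands are secreted proteins that act on neighbouring cells. Without ligand, the receptor Ptch1 keeps Smo inactive, and the Gli factors are held back by Sufu or cut into repressors at the primary cilium. When a ligand binds Ptch1, Smo is released and full-length Gli proteins switch on target genes, among them Gli1, Ptch1 and Hhip themselves. Hhip sits at the cell surface or is shed, binds the ligands and so keeps them from Ptch1. Healthy adult liver is known for little Hedgehog activity, and injured liver is known for ligand made by damaged epithelial cells that acts on stellate cells, the collagen-producing cells of liver fibrosis. The comparison asks how the transcripts of these genes differed between livers on the high-fat and the control diet.

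On the high-fat diet, Hhip transcripts were 3.24-fold lower than on the control diet, and none of the other 7 genes passed both thresholds of the test. Hhip was 13.2-fold lower in Xist-low libraries alone. In Xist-high libraries it was 2.02-fold lower and not called, where 0.882% of all genes were called lower. Over all libraries its call was lost without control replicate 3 (adjusted p = 0.0101, edgeR). Ihh stood at a mean of 2.65 CPM (counts relative to the library total in the usual CPM unit, after scaling by edgeR's TMM factors) against 1.42 CPM, and Ptch1 at 20.5 CPM against 27.6 CPM, and each missed 1 of the thresholds. Outside these 8 genes, 11 of 47 further pathway genes tested were called higher over all libraries, among them the ligand-release genes Scube1 and Scube3 and the co-receptor Boc. In the Xist-high libraries alone 2 of them were called, Scube1 and Tulp3, and the call of Boc was also lost without high-fat replicate 9. A gene was called when edgeR's quasi-likelihood test gave a Benjamini-Hochberg adjusted p of at most 0.01 over 17913 genes and the absolute log2 fold change was over 0.5. All 8 genes passed the filter of at least 1 count in at least 12 libraries and were tested. Of the 8 genes, 0 were called higher, where 13.2% of all genes tested were, and 1 was called lower, where 4.99% of all genes were. The median log2 fold change of the 8 genes was 0.47 and that of all genes tested was -0.03.

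The promoters of Hhip and Ihh are shown because these genes had the largest log2 fold changes among the members with a median of at least 10 counts, one lower and one higher. Hhip (ENSMUSG00000064325) lies at chr8:79965851-80058006 on the minus strand of GRCm38, with 13 exon blocks in GENCODE M21, and Ihh (ENSMUSG00000006538) lies at chr1:74945315-74951672 on the minus strand, with 3. Each sequence below holds the 250 bases before the start site in RefSeq on GRCm38.p6, read 5′ to 3′ on the strand of the gene, and capitals mark GC boxes (GGGCGG or its reverse complement CCGCCC).
Hhip, chr8:80058009-80058258: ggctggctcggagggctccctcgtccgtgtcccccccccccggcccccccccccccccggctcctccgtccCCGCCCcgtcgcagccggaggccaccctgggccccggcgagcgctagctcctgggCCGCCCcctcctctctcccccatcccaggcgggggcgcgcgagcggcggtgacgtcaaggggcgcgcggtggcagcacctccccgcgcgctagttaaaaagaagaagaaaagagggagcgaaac
Ihh, chr1:74951673-74951922: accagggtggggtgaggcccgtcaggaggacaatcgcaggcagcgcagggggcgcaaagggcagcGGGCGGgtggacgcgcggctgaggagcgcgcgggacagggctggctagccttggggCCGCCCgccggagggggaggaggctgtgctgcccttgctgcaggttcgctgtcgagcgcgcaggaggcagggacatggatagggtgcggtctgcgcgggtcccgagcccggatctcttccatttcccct
Each of the pair held 2 GC boxes, and 5 of the 6 members with a promoter in the RefSeq table (Ihh, Gli2, Smo, Hhip, Gli3 and Ptch1) held at least 1, against 32.7% of 32851 mouse promoters of the same length. The promoters of Hhip, Ihh and Ptch1 held 28, 24 and 41 CG dinucleotides, against a median of 6 over all promoters. The sequence GACCACCCA, to which Gli factors bind, was searched on both strands and was in 0 of the 6 windows and in 0.225% of all promoters. With 1 mismatch allowed it was in 0 of the 6 windows and in 5.79% of all promoters. The letters TATAAA were in 0 of the 6 windows and in 12.4% of all promoters, and CCAAT was in 0 of the 6 and in 33.8%. These matches describe letters in a window and do not show binding.

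Depth ranged from 14468418 to 22112552 counts per library with a median of 18756015.5, and 3 counts, the limit that a count of 0 allows, corresponded to 0.136 to 0.207 CPM of the library total. Such limits cover counting error only. Libraries of a diet were separate samples beyond sampling noise, with a lowest chi-square per degree of freedom of 10.1 on the high-fat and 18.4 on the control diet. The 8 hepatocyte markers, led by Alb, summed to between 39271 and 128755 CPM in every library, as the liver label says. High-fat replicate 9 stood apart. It had the lowest hepatocyte sum and a cholangiocyte marker sum of 208 CPM, where the other 11 high-fat libraries had 17.7 to 60.3 CPM, and it was the highest high-fat library for 20.3% of all genes tested.

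Between genes, levels were compared as CPM per kilobase of merged exon. On the control diet Ptch1 was highest with a mean of 1.95 CPM per kb ± 0.497 (SD, n = 12), followed by Smo at 1.09 ± 0.322, Ihh at 0.465 ± 0.340, Hhip at 0.247 ± 0.0867 and Shh at 0.130 ± 0.0922. The Gli factors came last on this scale, with Gli3 at 0.0384 ± 0.0274, Gli1 at 0.0325 ± 0.0238 and Gli2 at 0.0126 ± 0.0111. The ranges of all neighbours in this order overlapped, and the means of Ihh and Hhip, of Shh and Gli3, of Gli3 and Gli1 and of Gli1 and Gli2 lay closer together than the larger of their SDs. On the high-fat diet, Ptch1 (1.44 CPM per kb), Smo (1.37) and Ihh (0.871) lay within 1 SD of their neighbours, and the library with the least Ihh per kb lay above the library with the most Shh (mean 0.0842). Hhip followed Shh, at 0.0773 CPM per kb ± 0.0767 (SD, n = 12), within 1 SD of Shh above it and of Gli3 below it. Ptch1, Smo and Ihh were thus well above the counting floor, whereas Shh, Gli1 and Gli2 rested on few counts.

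Among the ligands, Ihh (Indian hedgehog) was the better covered. Its counts ran from 9 to 40 per control library with a median of 22.5, and from 19 to 114 per high-fat library with a median of 57. In CPM, control libraries ran from 0.433 to 4.07 with a median of 1.23, and high-fat libraries from 0.985 to 4.49 with a median of 2.77. The diets overlapped, although 11 of 12 high-fat libraries lay above the control median and 2 lay above every control. The log2 fold change was 0.94 (SE 0.34), with an adjusted p of 0.0298 from edgeR's quasi-likelihood test, which missed the threshold of 0.01. Control replicate 10 held the highest control level. Without it, the log2 fold change of Ihh was 1.18 with an adjusted p of 0.00445, past both thresholds. Scaling by library totals alone, in which the median of all genes rose from -0.03 to 0.26, gave Ihh a log2 fold change of 1.32 and Smo one of 0.67, and both were then called higher, as were 21.4% of all genes.

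The median of Ihh was higher in Xist-low than in Xist-high libraries on both diets, and this difference was not tested. Within the control diet, Xist-high libraries had 0.433 to 1.48 CPM (median 0.567) and Xist-low libraries 0.978 to 4.07 CPM (median 1.85). On the high-fat diet the Xist-high libraries had 0.985 to 2.88 CPM (median 1.33) and the Xist-low libraries 2.66 to 4.49 CPM (median 3.94). Thus the highest Ihh levels on either diet were in Xist-low libraries, and the sets overlapped on both diets. With the diet, the log2 fold change was 1.08 (SE 0.35, adjusted p = 0.0523) in Xist-high and 0.88 (SE 0.28, adjusted p = 0.0213) in Xist-low libraries, and these differed by -0.21 (SE 0.45) with an adjusted p of 0.825 for the difference, from edgeR. With the set added to the model as a covariate, the diet effect was 0.96 (SE 0.23, adjusted p = 0.00138), which passed both thresholds, as did 13.5% of all genes tested in this direction.

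Shh (Sonic hedgehog, ENSMUSG00000002633, chr5:28456815-28467256, minus strand) had 0 to 15 counts per library on either diet. Its median was 0.424 CPM in control and 0.161 CPM in high-fat libraries, and 10 of 12 high-fat libraries lay below the control median with overlapping ranges. For Shh the log2 fold change of -0.62 (SE 0.55) had an adjusted p of 0.387 in edgeR, so a difference was not resolved at these counts and this spread between libraries. On the opposite strand its exons share bases with 9530036O11Rik, which had a median of 0 counts on either diet, and with Gm26894, which has no value here.

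**Figure D1:**
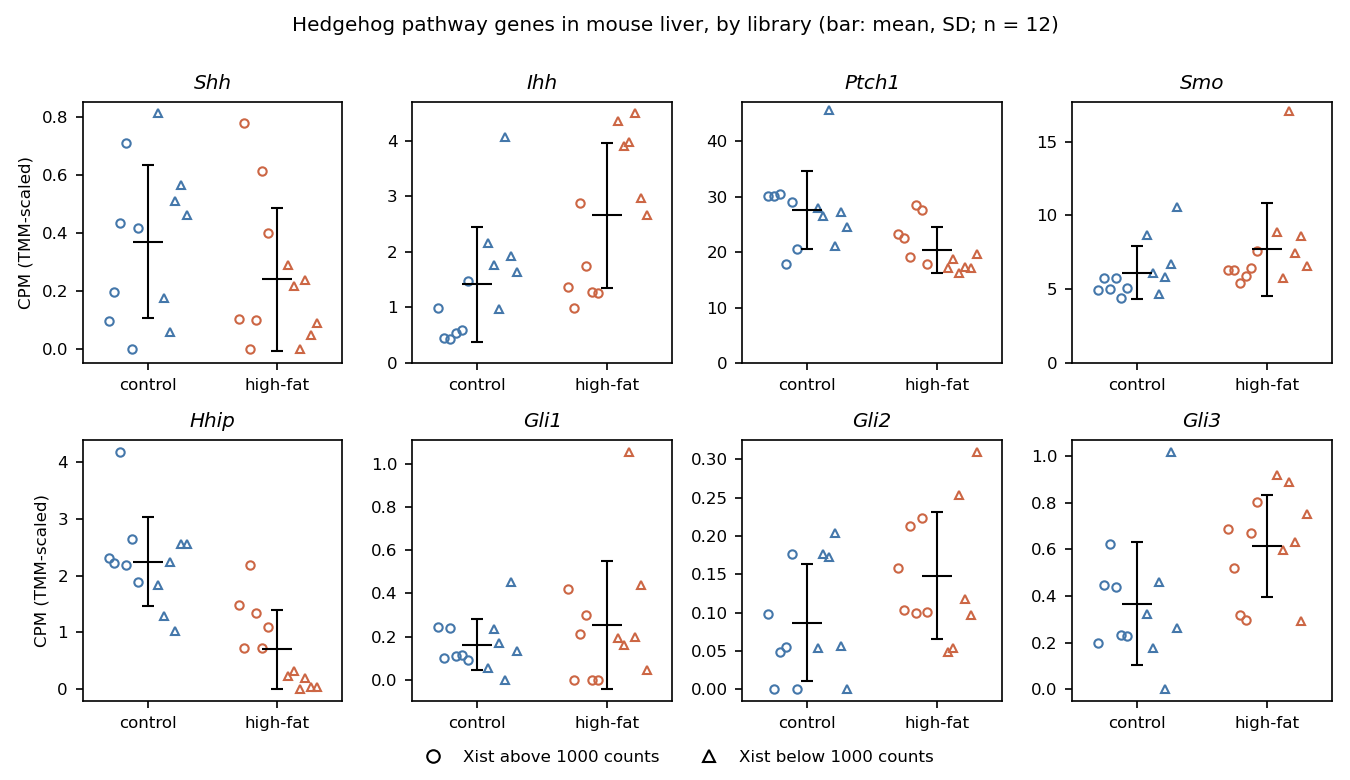
Level of each Hedgehog gene in every library, in CPM scaled by TMM factors on linear axes that differ between panels. Open symbols are single libraries (circles, Xist above 1000 counts; triangles, below), horizontal bars are means and whiskers are SDs over 12 libraries; 8 of the 12 high-fat libraries lie below every control for Hhip, and high-fat replicate 9 is the triangle at 17.1 CPM for Smo and 1.06 CPM for Gli1.

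Of the membrane proteins, Hhip, which binds and sequesters the ligands, carried the clearest difference. Control libraries had 10 to 87 counts with a median of 40.5, and high-fat libraries had 0 to 41 counts with a median of 9.5. In CPM, the controls ran from 1.02 to 4.18 with a median of 2.24, and the high-fat libraries from 0 to 2.18 with a median of 0.525. All 12 high-fat libraries lay below the control median, and 8 of them lay below every control. The mean was 2.25 CPM ± 0.787 (SD, n = 12) on the control diet and 0.701 CPM ± 0.696 (SD, n = 12) on the high-fat diet. On the log2 scale the change was -1.70 (SE 0.46, adjusted p = 0.00475, edgeR). Without control replicate 3, the highest control with 87 counts, it was -1.58 with an adjusted p of 0.0101, just beyond the threshold. Without high-fat replicate 9, the library at 0 counts, it was -1.56 with an adjusted p of 0.00444.

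The fall in Hhip was deeper in Xist-low than in Xist-high libraries. In Xist-low libraries, the 6 high-fat samples had 0, 1, 1, 5, 5 and 6 counts and the 6 controls had 10 to 45. Their levels were 0 to 0.325 CPM (median 0.123) on the high-fat and 1.02 to 2.56 CPM (median 2.04) on the control diet, and the diets did not overlap, as was the case for 9.66% of all genes in this direction and set. In Xist-high libraries, the high-fat samples had 0.725 to 2.18 CPM (median 1.22) and the controls 1.89 to 4.18 CPM (median 2.27), and the ranges overlapped. Hhip was 13.2-fold lower on the high-fat diet in Xist-low libraries (log2 fold change -3.72, SE 0.52, adjusted p = 8.27e-05) and thus called, as were 7.99% of all genes in this set and direction. It was 2.02-fold lower in Xist-high libraries (log2 fold change -1.02, SE 0.28, adjusted p = 0.0261) and not called, where 0.882% of all genes were called lower. The difference between these effects was -2.72 (SE 0.57), with an adjusted p of 0.00347 for the interaction of diet and set in edgeR. The effect was lower in Xist-low libraries at this threshold for 1.47% of all genes tested, and differed in either direction for 4.04%. Leaving out each library in turn kept the difference between -3.06 and -2.44, with adjusted p-values from 0.00165 to 0.00755. With the set as a covariate, the diet effect on Hhip was -2.08 (SE 0.38, adjusted p = 0.000115), and 5.92% of all genes were called lower in that fit.

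Activated stellate markers differed between the same groups of libraries. The summed level of 8 activated stellate markers, such as Col1a1 and Timp1, was 46.3 to 235 CPM on the control and 219 to 667 CPM on the high-fat diet, with 6 of the 8 called higher and 0 called lower. Acta2 (log2 fold change 0.53, adjusted p = 0.0300, edgeR) and Tagln (0.47, adjusted p = 0.0532) were not called. The sum was led by the collagen genes Col3a1, Col1a1 and Col1a2, with high-fat means of 171, 119 and 89.2 CPM. This sum was 219 to 365 CPM in Xist-high and 403 to 667 CPM in Xist-low high-fat libraries. As groups, the libraries with the least Hhip thus had the most of these markers. Hhip did not follow the sum in every library. Control replicate 11, at 235 CPM, had 2.55 CPM of Hhip, above the control median of 2.24 CPM. Xist-high high-fat replicates 3, 5 and 6 had sums of 219, 250 and 365 CPM and Hhip levels of 2.18, 0.725 and 1.10 CPM. The Xist-low high-fat libraries also stood apart for other cell types. The portal fibroblast marker sum was 21.2 to 46.2 CPM in Xist-high and 52.4 to 138 CPM in Xist-low high-fat libraries, and the monocyte-derived macrophage marker sum was 97.0 to 128 CPM and 167 to 239 CPM. The summed level of 8 quiescent stellate markers, such as Lrat and Reln, was 212 to 501 CPM on the control and 296 to 486 CPM on the high-fat diet. Of these, 3 were called higher and 0 lower, and the ranges of the diets overlapped. Over all genes tested, 13.2% were called higher and 4.99% lower. The hepatocyte sum was 68558 to 91942 CPM in Xist-high and 39271 to 49656 CPM in Xist-low high-fat libraries, against 80547 CPM or more in every control. The part of these cell types in the level of Hhip was not tested.

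**Figure D2:**
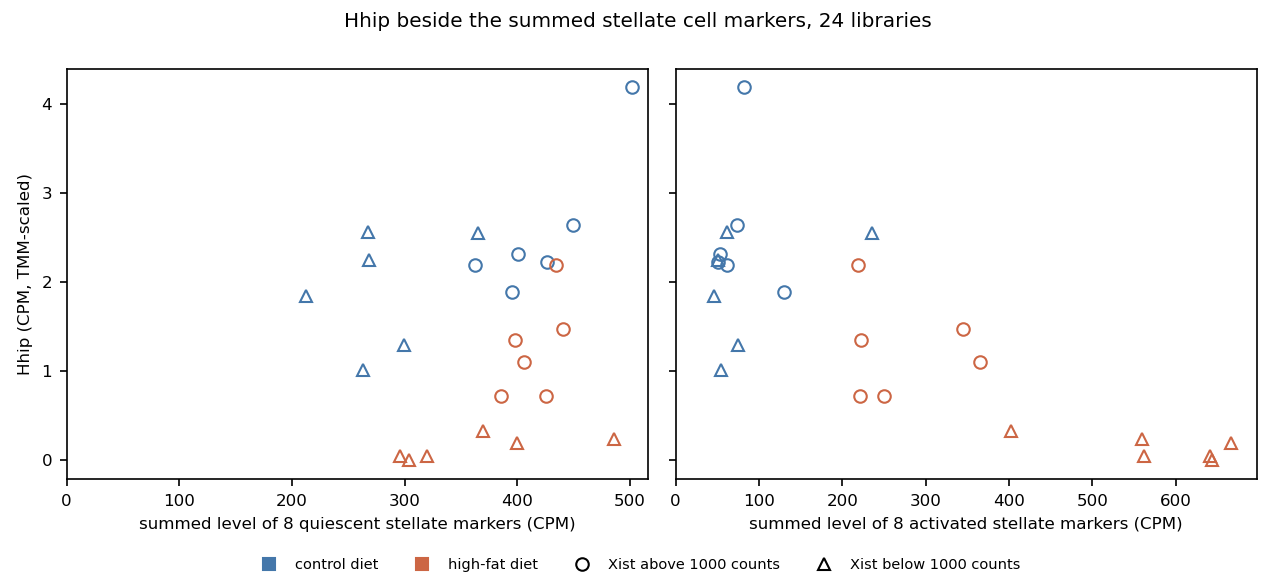
Hhip level in CPM (vertical axis) against the summed CPM of 8 quiescent stellate markers (left) and 8 activated stellate markers (right), 1 symbol per library. The 6 high-fat libraries with Xist below 1000 counts (orange triangles) have at most 0.325 CPM of Hhip and at least 403 CPM of the activated markers, while their quiescent marker sums of 296 to 486 CPM lie within the range of the other libraries.

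Ptch1, the ligand receptor and itself a Hedgehog target (ENSMUSG00000021466, chr13:63508328-63573598, minus strand, 27 exon blocks), had the most counts of the 8 genes. Control libraries had 208 to 794 counts, or 17.8 to 45.7 CPM with a median of 27.7, and high-fat libraries had 348 to 573 counts, or 16.3 to 28.5 CPM with a median of 19.0. The ranges overlapped, with 11 of 12 high-fat libraries below the control median and 4 below every control. Its log2 fold change was -0.44 (SE 0.12). The adjusted p of 0.00699 in edgeR was past 0.01, as it was for 10.9% of all genes in this direction, and its size was under the limit of 0.5. The change was -0.18 (SE 0.15, adjusted p = 0.472) in Xist-high and -0.69 (SE 0.15, adjusted p = 0.00279) in Xist-low libraries, and the difference of -0.51 (SE 0.23) had an adjusted p of 0.162. In Xist-low libraries the levels were 16.3 to 19.7 CPM on the high-fat and 21.2 to 45.7 CPM on the control diet, without overlap. Ptch1 was called lower in that set. Of all genes, 7.99% were called lower there, and 9.66% lay lower without overlap.

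Smo, the membrane protein that passes the signal on (ENSMUSG00000001761, chr6:29735503-29761365, plus strand, 12 exon blocks), had 57 to 161 counts in control and 102 to 404 counts in high-fat libraries. Levels were 4.40 to 10.6 CPM with a median of 5.77 on the control diet and 5.44 to 17.1 CPM with a median of 6.53 on the high-fat diet. Of the 12 high-fat libraries, 11 lay above the control median, and high-fat replicate 9 alone lay above every control. Across all libraries the log2 fold change was 0.33 (SE 0.17, adjusted p = 0.129, edgeR), and 0.18 (SE 0.13, adjusted p = 0.314) without that replicate. The effects in the Xist sets were 0.30 and 0.37 and differed by 0.06 (SE 0.30) with an adjusted p of 0.936. A change of Smo with the diet was therefore not resolved beyond the spread between libraries.

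**Figure D3:**
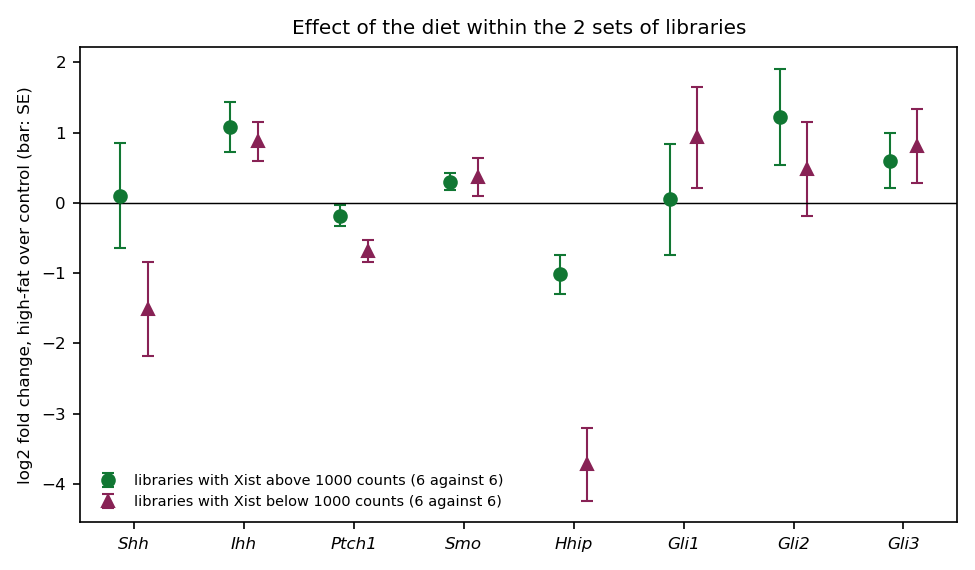
Log2 fold change of each Hedgehog gene, high-fat over control, in libraries with Xist above 1000 counts (circles) and below (triangles), 6 against 6 libraries each, with SE as whiskers. The symbols lie far apart for Hhip, at -1.02 and -3.72, and of the 8 genes Hhip was the one whose difference passed the test.

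The 3 Gli transcription factors were scarce in whole liver, and none was called. Gli1, an activator and target of the pathway (ENSMUSG00000025407, chr10:127329882-127341974, minus strand), had 0 to 8 counts in control and 0 to 25 counts in high-fat libraries. Its levels ran from 0 to 0.453 CPM with a median of 0.124 on the control diet and from 0 to 1.06 CPM with a median of 0.195 on the high-fat diet. The high value was that of high-fat replicate 9, and the other high-fat libraries had at most 9 counts and 0.439 CPM. The log2 fold change of 0.60 (SE 0.56, adjusted p = 0.412, edgeR) was 0.12 (SE 0.53, adjusted p = 0.880) without that library. On the opposite strand, 62 bases of the Gli1 exons overlap Arhgap9, which had a median of 174.5 counts on the high-fat and 52.5 counts on the control diet. The published methods describe stranded libraries, but whether the counting of the mouse reads used strand is not stated. Reads from this overlap therefore cannot be told apart.

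Gli2, the main activator (ENSMUSG00000048402, chr1:118834132-119053619, minus strand), had 0 to 3 counts in control and 1 to 7 counts in high-fat libraries, so all 12 controls were at or under 3 counts. Its log2 fold change was 0.81 (SE 0.46, adjusted p = 0.164, edgeR). Gli3, which acts mostly as a repressor (ENSMUSG00000021318, chr13:15463235-15730026, plus strand), had 0 to 18 counts in control and 6 to 21 counts in high-fat libraries. Its median was 0.294 CPM on the control and 0.650 CPM on the high-fat diet, 11 of 12 high-fat libraries lay above the control median, and the ranges overlapped. For Gli3 the log2 fold change was 0.71 (SE 0.33, adjusted p = 0.0866, edgeR). The estimates of all 3 factors were above 0 with none past the threshold, and that of Gli1 was -0.080 with limma-voom.

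A list of 49 further genes of the pathway, grouped by role, was read in the same fit. Of these, 47 were tested, 11 were called higher, 1 was called lower and 35 were not called, beside backgrounds of 13.2% higher and 4.99% lower over all genes. In the Xist-high libraries alone 2 were called higher, where 2.9% of all genes were. Their median log2 fold change was 0.20. By role, 2 of 6 genes for other ligands and ligand release, 1 of 4 further receptors, 3 of 20 intracellular genes, 1 of 8 cilium genes and 4 of 9 targets were called higher, and 1 intracellular gene was called lower. Scube2 and Foxl1 did not pass the filter. Foxl1, a target in mesenchymal cells, had 0 counts in all 12 controls and was counted in 8 of 12 high-fat libraries. Its high-fat median was 2 counts and its highest 8, and 9 of these 12 libraries were at or under 3 counts. A difference of Foxl1 between the diets was not tested.

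**Figure D4:**
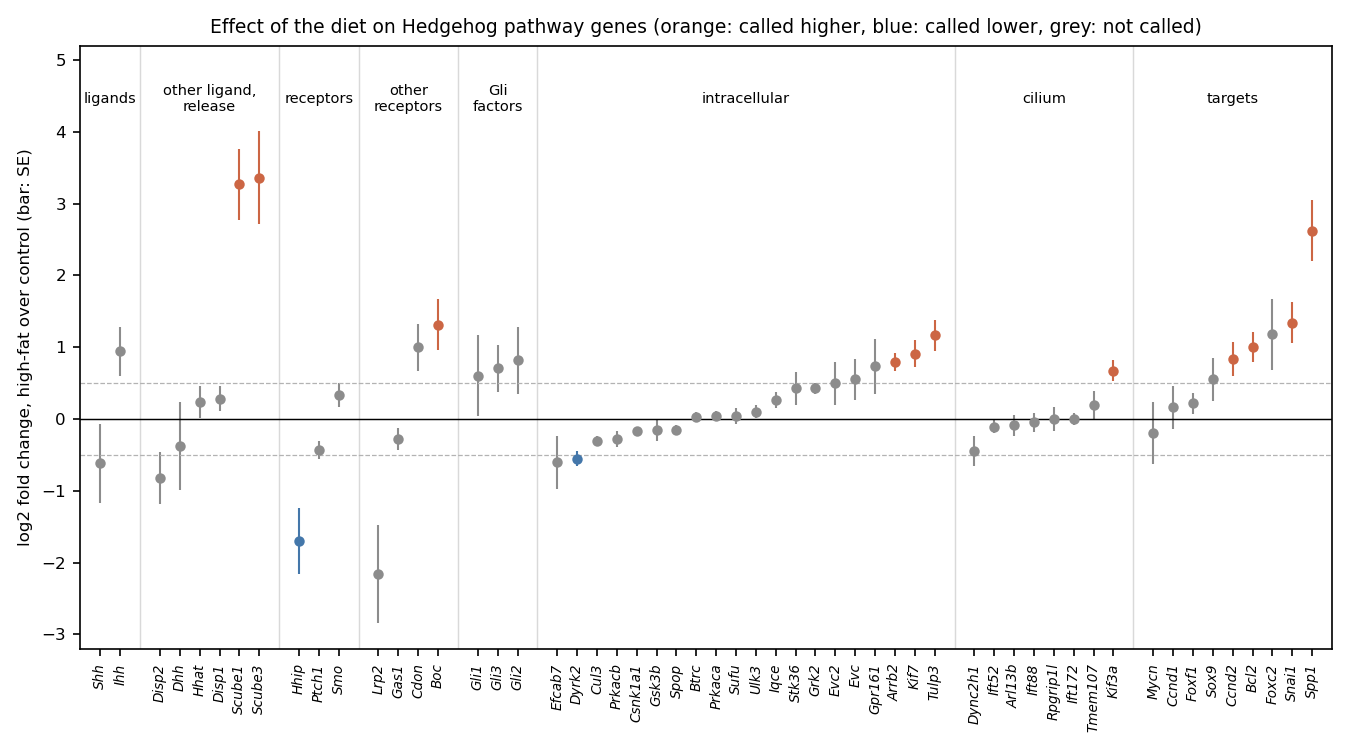
Log2 fold change, high-fat over control, with SE as whiskers, for the 8 Hedgehog genes (ligands, receptors, Gli factors) and 47 further pathway genes by role, from all 24 libraries. Orange and blue mark genes called higher and lower, grey marks genes not called, and dashed lines mark the limits of -0.5 and 0.5; Scube1 and Scube3 are highest at 3.27 and 3.36, and Hhip is called lower at -1.70.

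Of the 6 genes for other ligands and ligand release, Scube1 and Scube3 were called higher. Scube1, a secreted protein of a family that helps free lipid-bearing ligand from the producing cell, had 0.248 to 2.83 CPM in control and 0.948 to 13.6 CPM in high-fat libraries. All 12 high-fat libraries lay above the control median and 7 above every control. Its log2 fold change was 3.27 (SE 0.49, adjusted p = 1.61e-05, edgeR). It was 2.23 (adjusted p = 0.000828) in Xist-high and 3.55 (adjusted p = 2.59e-05) in Xist-low libraries, and the difference of 1.31 had an adjusted p of 0.171. In 24 fits that each left out 1 library, that difference passed only without control replicate 11 (2.03, adjusted p = 0.00682), with adjusted p-values up to 0.276. Scube3, of the same family, had 0 to 0.923 CPM in control and 0.266 to 24.5 CPM in high-fat libraries, the highest being high-fat replicate 9 with 580 counts, where the next had 118. Its log2 fold change was 3.36 (SE 0.65, adjusted p = 0.000243), and 2.38 (SE 0.47, adjusted p = 0.000387) without that library. The effects of 1.20 (adjusted p = 0.133, not called) and 4.18 (adjusted p = 0.000891) in Xist-high and Xist-low libraries differed by 2.98 (SE 1.02), with an adjusted p of 0.0621. Dhh, the remaining ligand, had a log2 fold change of -0.37 (SE 0.61, adjusted p = 0.658). The other genes of this role were not called either, with Hhat, which attaches palmitate to the ligands, at 0.24 (SE 0.22, adjusted p = 0.404), Disp1, which releases them from the cell, at 0.28 (SE 0.17, adjusted p = 0.203), and Disp2, its relative, at -0.82 (SE 0.36, adjusted p = 0.0709).

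Of the further receptors, Boc, which presents ligand to Ptch1, was called higher over all libraries. It had 0.108 to 1.12 CPM in control and 0.213 to 2.28 CPM in high-fat libraries, and 11 of 12 of the latter lay above the control median. Its log2 fold change was 1.31 (SE 0.35, adjusted p = 0.00465, edgeR), and 1.18 with an adjusted p of 0.0104, beyond the threshold, without high-fat replicate 9. In Xist-high libraries it was 0.44 (SE 0.44, adjusted p = 0.556) and not called, and in Xist-low libraries 2.07 (SE 0.45, adjusted p = 0.00219). The difference of 1.62 (SE 0.64) had an adjusted p of 0.112. In 24 fits that each left out 1 library, it passed only without control replicate 11 (2.36, adjusted p = 0.00834), with adjusted p-values up to 0.233. Cdon, a relative of Boc, had a log2 fold change of 1.0 (SE 0.32, adjusted p = 0.0163), and 0.68 (adjusted p = 0.0509) without high-fat replicate 9. The third co-receptor, Gas1, had -0.28 (SE 0.16, adjusted p = 0.152). Lrp2, an endocytic receptor that binds Shh, had -2.16 (SE 0.68, adjusted p = 0.0137). None of these 3 was called in Xist-high libraries, where 2.9% of all genes were called higher and 0.882% lower. In Xist-low libraries, Cdon was at 1.59 (adjusted p = 0.0116), Gas1 at -0.62 (adjusted p = 0.00690) and Lrp2 at -2.67 (adjusted p = 0.000892). Gas1 and Lrp2 were thus called lower there, as were 7.99% of all genes. The differences of these 3 genes between the sets did not pass the test, with adjusted p-values of 0.103, 0.0680 and 0.0229.

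Inside the cell, Tulp3, which brings receptors into the cilium, rose from 1.40 CPM ± 0.287 (SD, n = 12) to 3.12 CPM ± 1.85 (SD, n = 12). Its high-fat range of 1.95 to 8.71 CPM did not overlap the control range of 0.990 to 1.83 CPM, as was the case for 1.89% of all genes in either direction. This was a log2 fold change of 1.17 (SE 0.22, adjusted p = 0.000153), and 0.92 without high-fat replicate 9. Kif7, a ciliary kinesin that binds Gli proteins, rose by 0.91 on the log2 scale (SE 0.19, adjusted p = 0.000468). Arrb2, an arrestin that moves Smo to the cilium, rose by 0.80 (SE 0.12, adjusted p = 2.42e-05), and the cilium motor gene Kif3a by 0.67 (SE 0.15, adjusted p = 0.000844). Dyrk2, a kinase that acts on Gli2, fell by 0.55 (SE 0.11, adjusted p = 0.000234), and its change of -0.50 without high-fat replicate 9 no longer passed the size limit. Sufu, the chief inhibitor of the Gli factors, had a log2 fold change of 0.04 (SE 0.11, adjusted p = 0.789). In Xist-high libraries alone, Tulp3 was called (0.80, adjusted p = 0.00933), and Kif7 (0.68, adjusted p = 0.128), Kif3a (0.57, adjusted p = 0.0771), Arrb2 (0.39, adjusted p = 0.0281) and Dyrk2 (-0.29, adjusted p = 0.0649) were not. Of all genes, 2.9% were called higher and 0.882% lower in Xist-high libraries. All 5 were called in Xist-low libraries, where 14.4% of all genes were called higher and 7.99% lower. These 5 were named for their calls over all libraries, of which that set is a part. The difference between the sets passed the test for Arrb2, at 0.85 (SE 0.19, adjusted p = 0.00460), as it did for 4.04% of all genes in either direction. For Arrb2 it was just beyond the threshold, with an adjusted p of at most 0.0109, when any of 4 single libraries was left out. It did not pass for the other 4 genes. In 24 fits that each left out 1 library, that of Dyrk2 passed only without control replicate 10 (-0.64, adjusted p = 0.00490), with adjusted p-values up to 0.148. Most of these genes were not called over all libraries, 16 of 20 intracellular and 7 of 8 cilium genes.

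The targets that rose are also driven by other pathways, so they are no reading of Gli activity alone. Spp1, the secreted matrix protein osteopontin, rose by 2.62 on the log2 scale (SE 0.42, adjusted p = 3.27e-05), from a mean of 43.5 to 268 CPM. Snai1, a repressor of epithelial genes, rose by 1.34 (SE 0.29, adjusted p = 0.000714), the survival gene Bcl2 by 1.0 (SE 0.21, adjusted p = 0.000493) and the cell cycle gene Ccnd2 by 0.83 (SE 0.24, adjusted p = 0.00679). Ccnd2 was not called when any of 9 single libraries was left out, with an adjusted p of at most 0.0151. In Xist-high libraries none of these 4 was called, with Spp1 at 1.23 (adjusted p = 0.0305), Snai1 at 0.71 (adjusted p = 0.140), Bcl2 at 0.26 (adjusted p = 0.431) and Ccnd2 at 0.23 (adjusted p = 0.472). Of all genes, 2.9% were called higher in Xist-high libraries. In Xist-low libraries all 4 were called higher, at 3.28, 1.81, 1.85 and 1.40, where 14.4% of all genes were called higher. These 4 were named for their calls over all libraries, of which that set is a part. The difference between the sets passed the test for Bcl2, at 1.59 (SE 0.29, adjusted p = 0.000947), as it did for 4.04% of all genes in either direction. It was 2.04 (adjusted p = 0.0199) for Spp1. In 24 fits that each left out 1 library, that of Spp1 passed only without control replicate 11 (2.59, adjusted p = 0.000807), with adjusted p-values up to 0.0477. The targets most particular to the pathway, Gli1, Ptch1 and Hhip, were not called higher, as given above. The 5 targets tested and not called were Ccnd1, Mycn, Foxf1, Foxc2 and Sox9.

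Other cell types whose transcripts could carry these genes also moved with the diet. Of the portal fibroblast markers 5 of 6 were called higher, of the monocyte-derived macrophage markers 5 of 5, of the cholangiocyte markers 5 of 6 tested and of the mesothelial markers 2 of 5. Of the others, 1 of 6 sinusoidal endothelial and 1 of 5 resident macrophage markers were called higher, and of 3 smooth muscle and 5 T cell markers none was called. Of the 8 hepatocyte markers 5 were called lower and Cyp3a11 was called higher. Over all genes tested, 13.2% were called higher and 4.99% lower. The portal fibroblast sum ran from 13 to 37.2 CPM on the control and from 21.2 to 138 CPM on the high-fat diet, and the monocyte-derived macrophage sum from 17.3 to 52.5 CPM and from 97.0 to 239 CPM. The cholangiocyte sum ran from 15.0 to 31.1 CPM on the control and from 17.7 to 208 CPM on the high-fat diet. The mesothelial sum ran from 1.72 to 7.82 CPM and from 3.83 to 12.3 CPM. No marker was at 0 in every library. The part of these cell types in the levels of Ihh, Scube1, Scube3, Boc and the other genes above was not tested.

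Beyond the diet, the genes whose levels moved most like those of a Hedgehog gene from library to library were listed for the 4 members with enough counts. Likeness was Pearson's r of log2(CPM + 1) over 24 libraries after the mean of each diet and Xist set was subtracted, among 13928 genes, and libraries share depth and tissue composition. The genes most like Ihh were Leprotl1 (r = 0.84), Dpm2 (0.81), Cdk2ap2 (0.80), Fam25c (0.78) and Atf5 (0.76). Those most like Ptch1 were Vgll4 (r = 0.91), Bicd2, Camk1d, Abcb11 and Lcor (0.87 each). Those most like Smo were Ephb4 (r = 0.86), Gldn (0.85), Ankrd6 (0.83), Stxbp6 (0.83) and Gm3839 (0.82), and without high-fat replicate 9 the value for Ephb4 was 0.74. Those most like Hhip were Tubgcp5 (r = 0.82), Ces4a (0.80), Tacc1 (0.77), Tfdp1 (0.76) and Sfpq (0.75). With Spearman's rho, only 1 of the 5 genes was again among the 5 most like Ihh, Ptch1 and Smo, and 2 of the 5 for Hhip. With 0.1 added to the CPM in place of 1, 4 of the 5 were kept for Ihh, 5 for Ptch1, 3 for Smo and 0 for Hhip. The lists are thus not stable. Among the members themselves, r was -0.52 between Ihh and Ptch1, -0.36 between Smo and Ptch1, 0.23 between Ptch1 and Hhip, and between -0.11 and -0.01 for the other 3 pairs.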

How the data were processed

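Whole-liver poly(A) RNA-Seq of 24 mouse libraries was analysed, 12 per diet, grouped by the labels. The authors deposited whole-number read counts per Ensembl gene, without normalization. The submitters' processing notes name mm10, STAR 2.7.3a and bcl2fastq. The published methods name stranded libraries, an exon quantification pipeline and PISCES, with alignment described for the human genome. Which program, annotation and strand setting gave the mouse counts is not stated there. Symbols and exon lengths came from GENCODE M21, which lacked 4460 of 56205 IDs (0.0723% of counts).

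Testing used the quasi-likelihood functions of edgeR 4.0.16 (R 4.3.3) after TMM scaling, with a model of diet alone. P-values were adjusted by Benjamini-Hochberg over the 17913 genes counted in 12 or more libraries. Each SE was taken from the log2 fold change and its F statistic. TMM factors were 0.995 to 1.34 on the high-fat and 0.679 to 1.01 on the control diet. Interactions and fits within the Xist sets used the same pipeline. P-values measure the spread between these libraries. The scripts were tested on simulated data. Alternatives used DESeq2 1.42.0, limma 3.58.1 (voom), other scalings, filters and thresholds, a replicate block, the Xist set as a covariate, and each library left out in turn.

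Same-numbered libraries of the diets were not paired by the labels. The 8 genes, the lists and the Xist split were chosen with earlier results of these data known. The rule named all 8 members, the pathway genes called in the fit and those a sentence on a role needed, and for likeness the 5 genes with the highest r for each member with a median of at least 10 counts, among genes whose counts averaged 10 or more per library. Marker lists covered hepatocytes, cholangiocytes, quiescent and activated stellate cells, portal fibroblasts, smooth muscle, mesothelium, sinusoidal endothelium, resident and monocyte-derived macrophages and T cells. Promoters came from RefSeq (GRCm38.p6). Other samples of the series were not analysed here. 1 gene was left out of the pathway list and is not reported here.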

Additional observations from a re-analysis of the deposited data

Results flagged for a closer look

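The effect of the diet on Hhip differed between the sets of libraries with low and high Xist counts. The log2 fold change, high-fat over control, was -3.72 in the Xist-low and -1.02 in the Xist-high libraries, and the difference of -2.72 (SE 0.57, adjusted p = 0.00347 for the interaction in edgeR's quasi-likelihood test over all genes) is what singled it out. In the Xist-low set all 6 high-fat libraries lay below all 6 controls, as was the case for 9.66% of all genes. Those high-fat libraries had 0 to 6 counts of Hhip, so the sizes of -3.72 and -2.72 rest on few counts. The labels do not name the sets, and the activated stellate marker sum (403 to 667 CPM against 219 to 365 CPM in Xist-high high-fat libraries) and the hepatocyte marker sum (39271 to 49656 CPM against 68558 to 91942 CPM) also differed between them on the high-fat diet. So did the portal fibroblast marker sum (52.4 to 138 CPM against 21.2 to 46.2 CPM) and the monocyte-derived macrophage marker sum (167 to 239 CPM against 97.0 to 128 CPM). Their part in the difference was not tested.

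The diet effect also differed between the sets for Bcl2, by 1.59 (SE 0.29, adjusted p = 0.000947), with log2 fold changes of 1.85 in Xist-low and 0.26 in Xist-high libraries. For Arrb2 it differed by 0.85 (SE 0.19, adjusted p = 0.00460), with 1.25 and 0.39, and the difference no longer passed the threshold (adjusted p of at most 0.0109) when any of high-fat replicates 5 and 10 and control replicates 6 and 7 was left out. Such a difference in either direction passed for 4.04% of all genes tested.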

How the results depend on the processing

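Shh, Gli1 and Gli2 rest on few counts per library, which limits what this depth can resolve. Hhip had 0 to 6 counts in the Xist-low high-fat libraries, so the size of its change there is also limited by depth. Requiring 10 or more counts in each library left only Ptch1 and Smo of the 8 genes, and edgeR's filterByExpr removed Shh, Gli1, Gli2 and Gli3. The cause of each change given here was not tested, except where fewer genes or libraries entered by construction.

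Scaling by library totals alone gave a median log2 fold change of 0.26 over all genes (-0.03 with TMM) and moved Ihh to 1.32 and Smo to 0.67, both then called (2 members higher). It gave 3827 genes higher and 226 lower over all genes, 0 further pathway genes lower, and turned the Ihh difference between the sets to 0.20. DESeq2's size factors left that median at -0.02. In the Xist-high libraries alone, Hhip was -1.02 and not called (0 members lower), Shh turned to 0.10, Lrp2 to 0.61, 2 further pathway genes were higher, and 520 genes were higher and 158 lower. In the Xist-low libraries alone, Ptch1 was -0.69 and called (2 members lower), 3 further pathway genes and 1431 genes in all were lower. With the set as a covariate, Ihh was 0.96 and called (1 member higher) and 2 further pathway genes were lower. limma-voom turned Gli1 to -0.080, and the DESeq2 test called 2 further pathway genes lower.

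With the replicate number as a block, Ihh was 1.0 (adjusted p = 0.00297) and called, so 1 member was higher, Hhip was -2.10 (adjusted p = 0.00243), 2 further pathway genes were lower, and 2063 genes were higher and 844 lower. The numbers did not pair the libraries. Same-numbered libraries correlated by -0.09 for replicate 9 and by 0.15 to 0.54 for the others, and 2 of 12 correlated best with their own number.

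That count filter gave 1230 genes, 6 further pathway genes and 0 members in the higher, higher and lower direction. At an adjusted p of at most 0.05 Ihh (0.94) was called at a fold limit of 0.5. With these limits 1 member was higher and 2 further pathway genes lower, where 3004 genes in all were higher and 1280 lower. At any fold Ihh (0.94) and Ptch1 (-0.44) were called (1 member higher, 2 lower), with 4 further pathway genes lower, 3709 genes higher and 3388 lower. At a log2 fold over 1, 7 further pathway genes were higher and 0 lower, where 1690 genes in all were higher and 216 lower.

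Leaving out each library in turn gave Ihh 0.85 to 1.18 (called only without control replicate 10) and Hhip -2.0 to -1.56 (lost only without control replicate 3), 0 to 1 members higher, 0 to 1 lower and 0 to 2 further pathway genes lower, with 0 without high-fat replicate 9. Sufu ranged from -0.0020 to 0.091, and the differences between the sets from -0.53 to 0.060 for Ihh, -0.21 to 0.21 for Smo and -0.026 to 0.78 for Gli3. Hhip was lower under every alternative that tested it.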
